A study of Mus musculus with 468 samples.

Results

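The 9 genes described here encode the route by which fatty acids reach a fat cell from the blood. They are lipoprotein lipase (Lpl), its endothelial carrier (Gpihbp1), its secreted inhibitor (Angptl4), the uptake proteins Cd36, Slc27a1 and Slc27a4, the intracellular fatty acid binding proteins Fabp4 and Fabp5, and the very low density lipoprotein receptor (Vldlr). They were taken by gene symbol as genes of this route. The rule used no measured value, but the set was put together with earlier results of these data known. All 9 were found among the 23180 genes of the deposited table. Each of the 9 passed the filter, a minimum of 10 counts in 50% or more of the libraries, and so did 18380 genes in all.

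Triglyceride travels in the blood inside chylomicrons and very low density lipoproteins. The adipocyte makes lipoprotein lipase and secretes it, GPIHBP1 carries it across the capillary endothelial cell to the lumen, and the lipase then frees fatty acids from the particle. ANGPTL4, made largely by the adipocyte itself in fasting, inactivates the enzyme, and CD36, which sits on both endothelial cells and adipocytes, takes up the freed fatty acids, which are then bound by FABP4 in adipocytes and endothelial cells and by FABP5 in several cell types including macrophages.

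Each library held the adipose RNA of 1 mouse of the Diversity Outbred stock, which was bred from 8 inbred founder strains so that no 2 animals share a genotype. Every mouse was fed a high-fat, high-sugar diet labeled as 45 percent fat, so there was no control diet and the libraries formed a single group. Neither sex, age nor sequencing batch was given in the labels used for grouping, and the study described the tissue as the gonadal fat pad. The design therefore allowed comparisons across mice only: how far each gene varied, which cell type markers it followed, and which genes moved with it.

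Total expected counts ran from 35.3 to 137.8 M per library with a median of 82.04 M, so every one of the 9 genes was counted at high depth, and the lowest count of any of them in any library was 966, for Slc27a4. The adipocyte, endothelial and macrophage marker lists each had 10 of 10 genes past the filter, with summed levels of 4480 to 28882, 604.1 to 1945 and 333.5 to 6042 CPM across libraries (CPM, the count of a gene scaled to a total of 1 M per library). In 51.5% of the libraries Y chromosome genes had counts and in 48.5% they had practically none. Most correlations were therefore also computed within these 2 sets of libraries. Those with scores of marker lists, and those of gene pairs with cell type genes held, were not split in this way. Whether the 9 genes differed in level between the sets was not tested. There were 6 libraries that stood apart from the rest, 1 with 17523 CPM of the seminal vesicle gene Ceacam10 against a median of 0.135 CPM, 1 with 1068 CPM of Adam28, 2 with 28.4% and 19.2% of all counts on the ribosomal gene CT010467.1, and 2 with neither Xist nor Y chromosome counts at the levels of the other libraries. Results were recomputed without them.

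The 2 fatty acid binding proteins are close relatives, and reads can be split between relatives, so the start of each coding sequence is shown to let the likeness be seen. Fabp4 lies at chr3:10204088-10208576 on the minus strand of GRCm38 and Fabp5 at chr3:10012548-10016607 on the plus strand. The lines give the first 240 coding bases of the principal transcript of each gene in GENCODE M21 (GRCm38), 5′ to 3′, with capitals for stretches of at least 8 bases that are identical in the alignment.
Fabp4: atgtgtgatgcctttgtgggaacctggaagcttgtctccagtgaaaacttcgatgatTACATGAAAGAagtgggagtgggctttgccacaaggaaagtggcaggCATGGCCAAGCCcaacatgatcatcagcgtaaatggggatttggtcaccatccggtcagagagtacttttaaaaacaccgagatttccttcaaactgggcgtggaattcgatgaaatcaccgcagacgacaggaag
Fabp5: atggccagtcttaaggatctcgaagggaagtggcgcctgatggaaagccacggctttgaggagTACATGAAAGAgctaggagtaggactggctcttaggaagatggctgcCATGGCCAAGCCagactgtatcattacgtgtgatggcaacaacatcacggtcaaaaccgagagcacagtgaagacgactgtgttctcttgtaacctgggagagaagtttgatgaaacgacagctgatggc
Over the whole coding sequences, 63.07% of the aligned positions were identical, and the longest identical run was 12 bases. No stretch of 100 bases was shared between Fabp4 and any other gene, so the pair could be told apart by reads of that length. Fabp5 was the exception in the set, with 9.01% of its 100-base words also found in the processed copies Gm6166 and Gm14328. Gm6166 took a median of 0.100% and at most 4.56% of the counts summed with Fabp5, and adding both copies to Fabp5 left its correlations with Adipoq, Cdh5 and Adgre1 at -0.15, 0.17 and 0.25. Lpl shared 1.12% of its words, and the other members shared none.

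The lipase system was dominated by the enzyme itself. Lpl (chr8:68880491-68907448, plus strand) had 3004 CPM in the lowest mouse, a median of 8553 CPM and 16306 CPM in the highest, with a mean of 8645 ± 1957 CPM (SD over all mice), and took 0.865% of all counts on average. Gpihbp1 (chr15:75596628-75599481, plus strand), which holds the enzyme on the capillary wall, ran from 29.7 through a median of 85.1 to 193.6 CPM (mean 86.1 ± 20.1 CPM). Angptl4 (chr17:33773750-33781830, minus strand), the inhibitor, ran from 181.35 through 479.9 to 783.3 CPM (mean 489.7 ± 100.75 CPM). The lowest value of both Lpl and Angptl4 came from the same mouse, DO283, the one with Ceacam10 counts.

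Among the uptake proteins, Cd36 (chr5:17781690-17888801, minus strand) was the most abundant at 949, 3962 and 5612 CPM for the lowest, median and highest mouse (mean 3944 ± 611.6 CPM). Its lowest value was again that of DO283, and the next lowest mouse had 1905 CPM. Slc27a1 (chr8:71568882-71587302, plus strand), a fatty acid transport protein of muscle and fat that also activates the acids it takes up, ran from 117.3 through 459.6 to 3066 CPM (mean 546.7 ± 329.01 CPM). Its relative Slc27a4 (chr2:29802634-29817522, plus strand) ran from 29.7 through 43.4 to 112.5 CPM (mean 44.04 ± 6.70 CPM). The highest value of each transporter stood clear of the others, since the next highest mice had 1948 CPM of Slc27a1 and 73.9 CPM of Slc27a4.

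Inside the cell, Fabp4, the main fatty acid carrier of adipocytes, had 3825, 9713 and 15359 CPM in the lowest, median and highest mouse (mean 9536 ± 1837 CPM), and Fabp5 had 61.2, 172.1 and 466.55 CPM (mean 183.9 ± 69.9 CPM). Vldlr (chr19:27216484-27254231, plus strand), a receptor that binds triglyceride-rich particles and keeps them near the lipase, ran from 59.8 through 137.05 to 330.7 CPM (mean 141.55 ± 41.03 CPM). None of the 9 genes was at 0 in any library. No gene of the set overlaps another annotated gene.

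**Figure D1:**
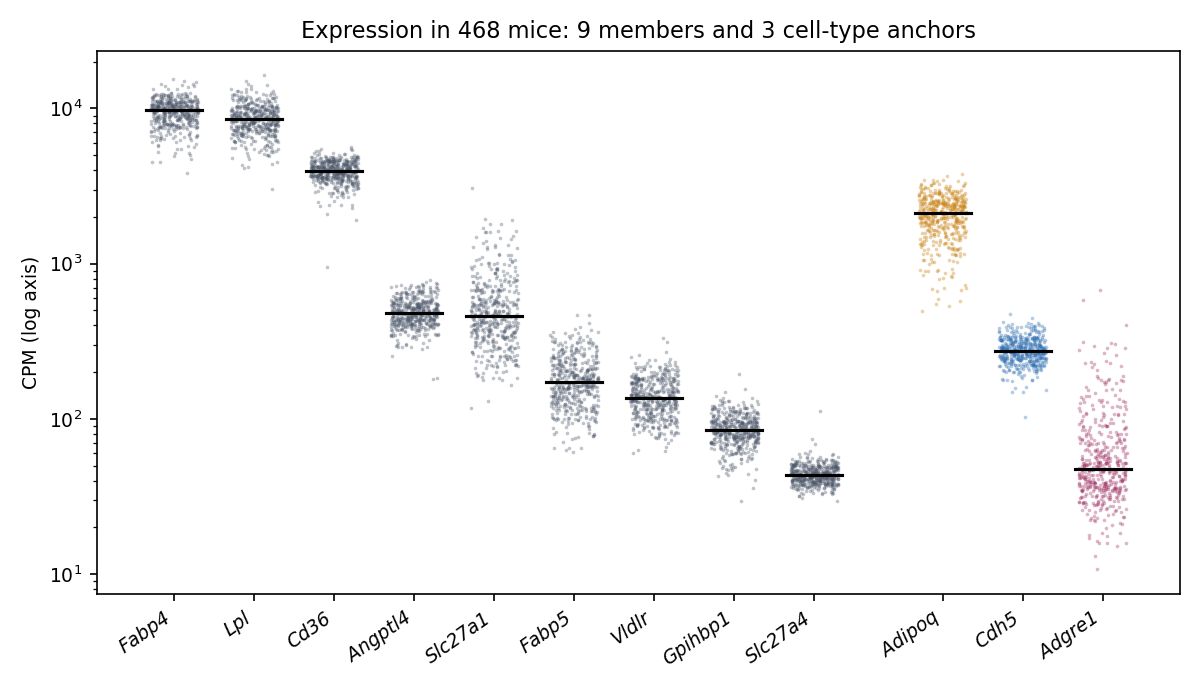
Expression of the 9 genes and of the 3 cell type anchors in CPM on a log axis, 1 point per mouse, with a bar at the median. Fabp4, Lpl and Cd36 have the highest medians, 9713, 8553 and 3962 CPM, Slc27a1 and Adgre1 spread widest, and 1 mouse lies far below the rest for Cd36 at 949 CPM.

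CPM rises with transcript length, so levels were compared between genes after division by the length of the principal transcript. On this scale of CPM per kilobase, the median level was 10841 for Fabp4 (896 bases), 2079 for Lpl (4115 bases), 1166 for Cd36 (3399 bases), 174.3 for Fabp5 (987 bases), 164.4 for Slc27a1 (2795 bases), 145.1 for Angptl4 (3308 bases), 103.2 for Gpihbp1 (825 bases), 17.2 for Vldlr (7971 bases) and 10.7 for Slc27a4 (4054 bases). The order at the top held in nearly every mouse: Fabp4 exceeded Lpl in 100% of the mice, and Lpl exceeded Cd36 in all but 1. The middle of the order was not settled, since Fabp5 exceeded Slc27a1 in 49.8% of mice and Slc27a1 exceeded Angptl4 in 58.8%. Angptl4 exceeded Gpihbp1 in all but 34 mice, Gpihbp1 exceeded Vldlr in 100%, and Vldlr exceeded Slc27a4 in all but 35.

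The genes differed in how much they varied between mice. Slc27a1 varied most, with an SD of 0.73 on the log2 CPM scale and a 5.49-fold distance between the 5th and 95th percentile of mice, and 91.7% of the 9511 genes whose mean reached 10 CPM varied less. Fabp5 followed with an SD of 0.55 (3.35-fold, above 84.03% of genes) and Vldlr with 0.42 (2.55-fold). Gpihbp1 and Lpl had SDs of 0.35 and 0.34, Angptl4 and Fabp4 both 0.30, and Cd36 0.25. Slc27a4 was the steadiest with an SD of 0.20 and a 1.52-fold distance, while the median gene had an SD of 0.27. The 2 transporters of the Slc27 family thus lay at opposite ends of the set.

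The cell types that make these proteins were approached through 3 genes that mark them: Adipoq (adiponectin, secreted by adipocytes), Cdh5 (the cadherin of endothelial junctions) and Adgre1 (the macrophage surface protein F4/80). Each anchor followed the rest of its own marker list, with r of 0.75, 0.86 and 0.94 respectively. In whole tissue, fewer cells of a type and less RNA per cell cannot be told apart, so a correlation with an anchor describes tissue that was rich in that marker. The anchors were themselves related, since Adipoq fell where Adgre1 was high (r = -0.51, rho = -0.35, permutation p = 1e-05 each). In all, 27 correlations of a member with an anchor were computed on log2 CPM with two-sided permutation tests of 100000 resamples, for which 1e-05 is the smallest p possible, and no adjustment was made over the members because earlier results of these data were known when the set was put together.

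Fabp4 followed adipocytes most closely. Its r with Adipoq was 0.68 (rho = 0.60, permutation p = 1e-05), the rank of 12 among 18379 genes, and it was 0.67 without the 2 mice farthest from the median of Adipoq. Within 5 blocks of mouse number the value ran from 0.67 to 0.69 and within 5 blocks of library number from 0.55 to 0.77. It was 0.77 in libraries with Y chromosome counts and 0.43 in those without. Fabp4 also had r = 0.34 with Cdh5 and -0.45 with Adgre1.

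Gpihbp1, known from capillary endothelium, had r = 0.58 with Cdh5 (rho = 0.53, permutation p = 1e-05), rank 62 of 18379 genes. Over all libraries it had nearly the same value with Adipoq, 0.55. In libraries with Y chromosome counts Gpihbp1 had 0.69 with each of these anchors, but without them it had 0.53 with Cdh5 and 0.28 with Adipoq. Without the 2 farthest mice its r with Cdh5 was 0.56, and the blocks gave 0.43 to 0.68 by mouse number and 0.42 to 0.65 by library number. Its r with Adgre1 was -0.40, but this value was not seen in every set of libraries: it was -0.59 with Y chromosome counts (permutation p = 1e-05) and -0.047 without (p = 0.483).

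Angptl4 and Cd36 also followed the endothelial anchor. Angptl4 had r = 0.52 with Cdh5 (rho = 0.51, permutation p = 1e-05, a value above 99.4% of genes) and Cd36 had r = 0.49 (rho = 0.42, permutation p = 1e-05, above 99.1%). Without the 2 mice farthest from the median of Cdh5 these values were 0.49 and 0.44. They held in both sets of libraries, at 0.46 and 0.47 for Angptl4 and at 0.55 and 0.40 for Cd36, with and without Y chromosome counts respectively. Cd36 had r = 0.40 with Adipoq and 0.0061 with Adgre1 (permutation p = 0.896). With the scores of the marker lists in place of the anchors, the endothelial values were smaller, at 0.36 for Angptl4 and 0.40 for Cd36. On these scores Angptl4 had a larger r with macrophages, 0.41, and Cd36 had a nearly equal r with adipocytes, 0.41. The lead of the endothelial marker for both genes thus rested on Cdh5 and was not seen with the scores.

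The relation of the inhibitor to adipocytes was not the same over all libraries as within the sets. Angptl4 had r = 0.0081 with Adipoq over all libraries (permutation p = 0.863), yet r = 0.19 (p = 0.00249) within the libraries with Y chromosome counts and 0.32 (p = 1e-05) within those without. The value over all mice therefore did not describe either set. With Adgre1 its r was 0.38 over all libraries, 0.23 with and 0.15 without Y chromosome counts. Its r with the score of the 7 brown fat markers, whose summed level ran from 12.04 to 6657 CPM, was larger in size at -0.43 (permutation p = 1e-05), and the part of these markers in its values was not tested. Lpl had r = 0.39 with Adipoq and 0.44 with Cdh5 (permutation p = 1e-05 each), and -0.061 with Adgre1 (p = 0.19), which was -0.26 with and 0.10 without Y chromosome counts (p = 9e-05 and 0.127).

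Slc27a1 was the member with the largest negative relation to macrophages, r = -0.54 with Adgre1 (rho = -0.56, permutation p = 1e-05). It was -0.56 without the 2 farthest mice, ran from -0.62 to -0.41 by mouse number and from -0.60 to -0.50 by library number, and was -0.48 with and -0.36 without Y chromosome counts. Its relation to Adipoq, 0.47 over all libraries, rested on the libraries with Y chromosome counts, at 0.56 against 0.10 in the others (permutation p = 1e-05 and 0.122). With the marker scores over all libraries, Slc27a1 had a larger r in size with adipocytes, 0.65, than with macrophages, -0.56 (permutation p = 1e-05 each). Its relation to Cdh5 changed sign, at 0.26 with and -0.26 without Y chromosome counts (p = 5e-05 in each), around -0.14 in all. The brown fat list moved with it: Slc27a1 had r = 0.57 with the score of the 7 brown fat markers, Slc27a4 had 0.34 and Fabp4 had 0.31 (permutation p = 1e-05 each), and their part in these values was not tested. With Xist and Y chromosome covariates the r of Slc27a1 with Cdh5 was -0.0013.

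Fabp5 and Vldlr shared a weaker pattern of the opposite kind. Fabp5 had r = -0.15 with Adipoq, 0.17 with Cdh5 and 0.25 with Adgre1, and Vldlr had -0.24, 0.25 and 0.30, each with a permutation p of at most 0.0008. Both had a larger r, in size, with the score of 5 mesothelium markers, at -0.38 for Fabp5 and -0.33 for Vldlr (permutation p = 1e-05 each). The summed level of these 5 markers, all past the filter, ran from 47.7 to 599.8 CPM, and their part in the values of both genes was not tested. With the scores of 10 markers in place of the anchors, the r of Fabp5 was -0.081 with adipocytes and 0.039 with endothelium (p = 0.0779 and 0.404). Their relation to Adgre1 was held by the libraries with Y chromosome counts, at 0.46 for Fabp5 and 0.43 for Vldlr (p = 1e-05 each), against -0.091 and 0.038 in those without (p = 0.171 and 0.566). Slc27a4 had r = 0.039 with Adipoq (p = 0.403), -0.18 with Cdh5 and -0.21 with Adgre1. With the adipocyte score in place of Adipoq its r was 0.21 (permutation p = 1e-05). The value of Slc27a4 with Adgre1 was -0.028 with and -0.20 without Y chromosome counts (permutation p = 0.669 and 0.00315). Of the 27 relations, 20 kept their sign in every block and 22 in both sets of libraries. The 14 with a size of 0.3 or more all did both. They were picked by their r over these same libraries, so this is no separate check. A kept sign also covers values near 0, such as Gpihbp1 with Adgre1 at -0.047 without Y chromosome counts.

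**Figure D2:**
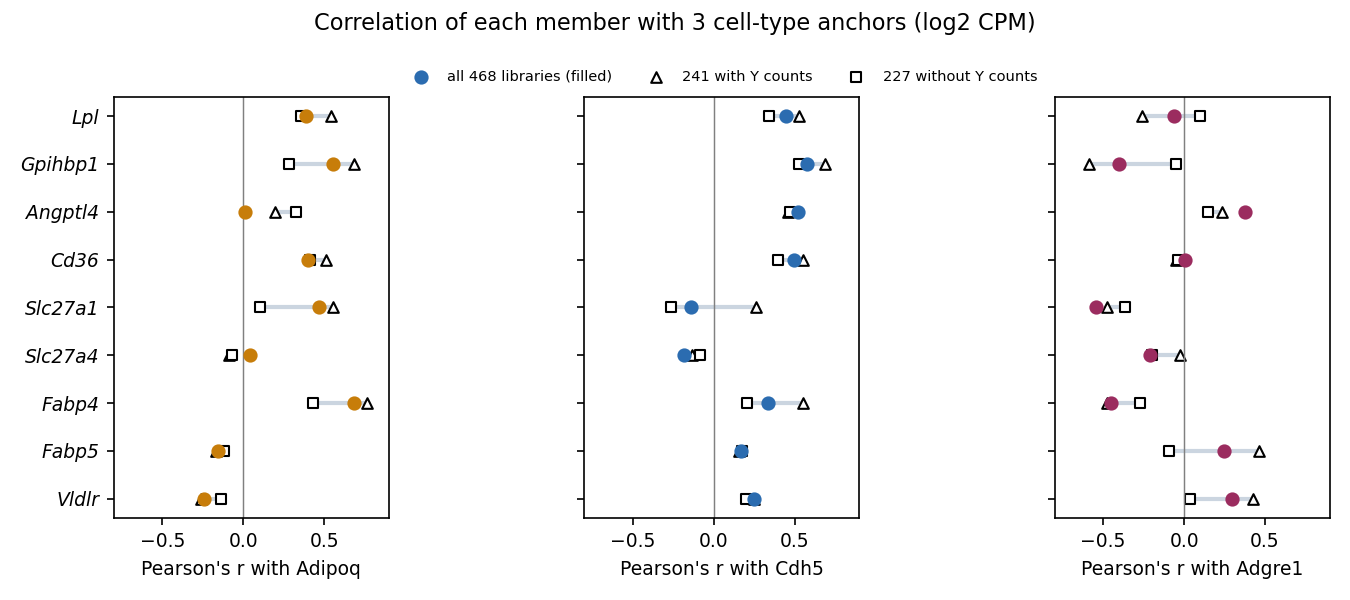
Pearson's r of each gene with Adipoq, Cdh5 and Adgre1 on log2 CPM over all libraries (filled circles), those with Y chromosome counts (triangles) and those without (squares). Gpihbp1, Fabp5 and Vldlr had r near 0 with Adgre1 among the squares, and Angptl4 had a larger r with Adipoq in each set than in all libraries.

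**Figure D3:**
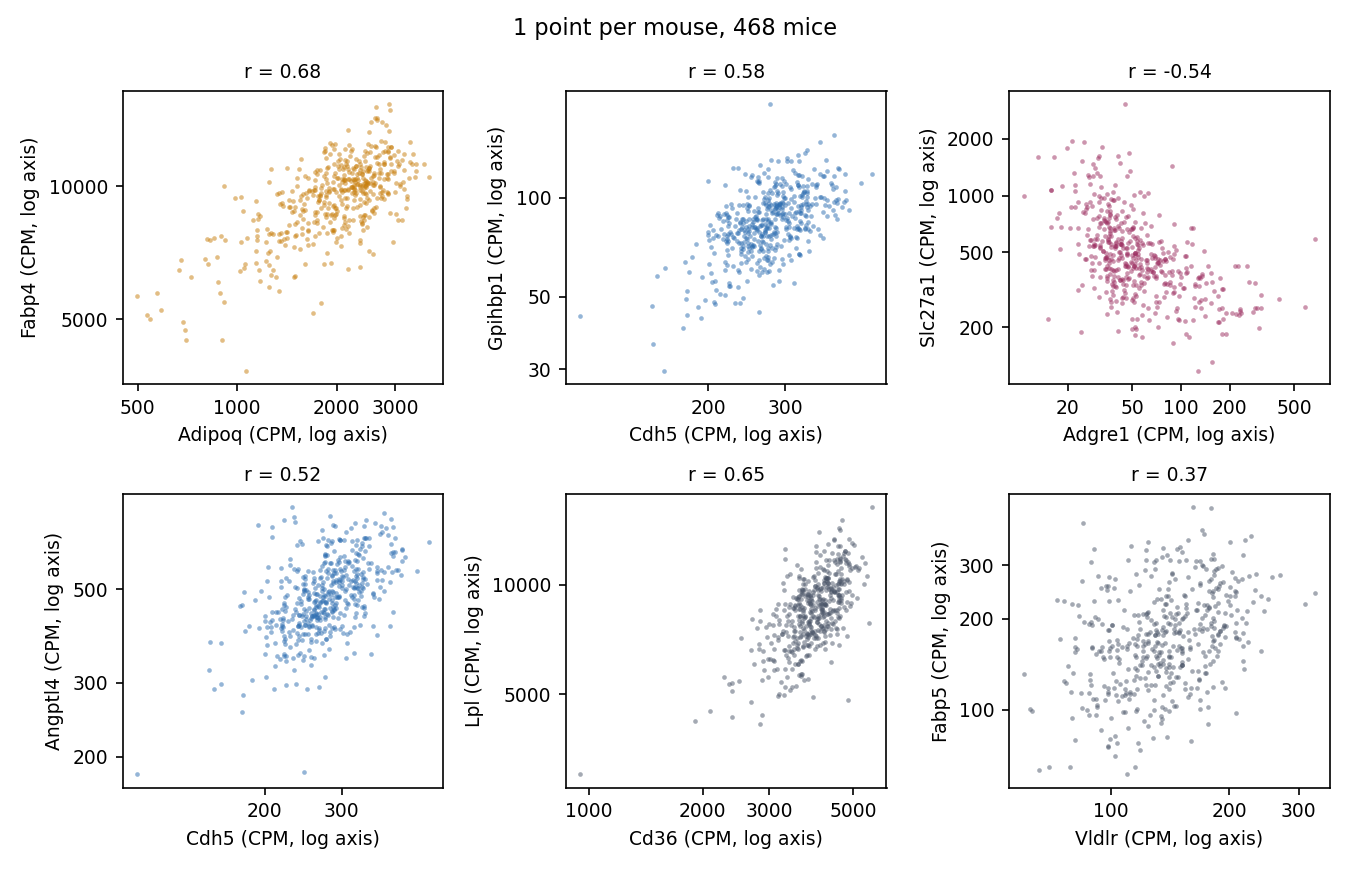
Levels in CPM on log axes for 6 relations, 1 point per mouse, with Pearson's r of log2 CPM above each panel. Fabp4 rises with Adipoq (r = 0.68), Slc27a1 falls with Adgre1 (r = -0.54), and the mouse with the lowest Cdh5 lies apart at the lower left for Angptl4.

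The anchors together accounted for different shares of the variance. They took 58.2% for Gpihbp1 and 52.4% for Fabp4, 38.97% for Angptl4, 37.7% for Slc27a1, 34.9% for Cd36, 28.6% for Lpl and 17.5% for Vldlr. For Fabp5 (9.13%) and Slc27a4 (7.28%) they took less than the 12.9% of the median gene. Most of the variation of the lipase enzyme between mice was thus not shared with these 3 markers.

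Since the anchors are related to each other, each gene was then given a slope on all 3 together. The slopes are log2 changes per SD of an anchor with the other 2 held, tested by edgeR's quasi-likelihood test and adjusted by Benjamini-Hochberg over 18377 genes. No slope was fitted within the 2 sets of libraries by Y chromosome counts. On Adipoq, 53.2% of all genes were called at an adjusted p under 0.05 and 7 of the 9 members were, a share to be read against that background. Slc27a1 rose by 0.23 ± 0.035 (SE, adjusted p = 1.13e-09), Fabp4 by 0.15 ± 0.012 (adjusted p = 4.54e-29), Lpl by 0.11 ± 0.017, Cd36 by 0.093 ± 0.012 and Gpihbp1 by 0.092 ± 0.013. Only 21.3% of all genes were called with a positive slope on Adipoq, against these 5 of 9. Negative calls made up 31.9% of all genes, and 2 members had one, Vldlr at -0.097 ± 0.022 (adjusted p = 3.41e-05) and Fabp5 at -0.068 ± 0.030 (adjusted p = 0.0464). The call of Fabp5 was lost without the filter, by limma, with number covariates and without the shallowest 10% of libraries. Angptl4 (0.022, adjusted p = 0.184) and Slc27a4 (-0.0054, adjusted p = 0.709) were not called, but with Xist and Y chromosome covariates Angptl4 was called at 0.052 (adjusted p = 0.000565).

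On Cdh5, with Adipoq and Adgre1 held, 59.6% of all genes and 9 of the 9 members were called, 7 of them upward against 23.5% of all genes. Gpihbp1 rose most at 0.18 ± 0.011 per SD (adjusted p = 4.89e-45), then Angptl4 at 0.14 ± 0.012 (adjusted p = 1.38e-25), Vldlr at 0.12 ± 0.019 and Lpl at 0.12 ± 0.014. Cd36 (0.088), Fabp5 (0.071, adjusted p = 0.0133) and Fabp4 (0.064) rose less. The transporters went the other way, as did 36.1% of all genes, Slc27a1 at -0.17 ± 0.028 (adjusted p = 1.77e-08) and Slc27a4 at -0.034 ± 0.0097 (adjusted p = 0.00125). With Xist and Y chromosome covariates Slc27a4 had -0.020 and lost its call (adjusted p = 0.0906), while Slc27a1 kept a negative call. The r of Slc27a1 with Cdh5 was 0.26 with and -0.26 without Y chromosome counts, so its slope does not describe both sets.

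On Adgre1, with the other 2 anchors held, 73.4% of all genes and 8 of the 9 members were called. There were 4 in each direction, against 31.6% of all genes called positive and 41.8% negative. Angptl4 rose by 0.12 ± 0.013 (adjusted p = 4.67e-16), Fabp5 by 0.071 ± 0.028 (adjusted p = 0.0154), Vldlr by 0.059 ± 0.021 and Cd36 by 0.039 ± 0.011. The negative slopes were -0.29 ± 0.032 for Slc27a1 (adjusted p = 6.51e-17), -0.11 ± 0.013 for Gpihbp1 (adjusted p = 1.46e-15), -0.062 ± 0.012 for Fabp4 and -0.043 ± 0.011 for Slc27a4. Lpl had 0.022 ± 0.016 (adjusted p = 0.216). Without the shallowest 10% of libraries Cd36 had 0.023 and lost its call (adjusted p = 0.0702). The r of Gpihbp1, Fabp5 and Vldlr with Adgre1 was -0.59, 0.46 and 0.43 with Y chromosome counts. Without them it was -0.047, -0.091 and 0.038.

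The macrophage slopes depended on which markers stood for the cell types. With the mean of all 10 markers of each type in place of 1 anchor, no member had a called negative slope on macrophages: Fabp4 turned to 0.071, and Gpihbp1 (-0.017), Slc27a1 (-0.080, adjusted p = 0.0618) and Slc27a4 (-0.028) were no longer called. Lpl became called at 0.13, beside Angptl4 at 0.22, Cd36 and Fabp5 at 0.15 and Vldlr at 0.10. On the adipocyte score the 5 genes that rose with Adipoq rose again, Slc27a1 by 0.45, Fabp4 by 0.28, Lpl by 0.21, Cd36 by 0.20 and Gpihbp1 by 0.16, and Angptl4 was called at 0.12. Slc27a4, not called on Adipoq, was called on this score at 0.031 (adjusted p = 0.0341), so that 7 members were called, all positive. On the same score the calls of Fabp5 (0.080, adjusted p = 0.067) and Vldlr (-0.016) were lost. Fabp5 on the endothelial score was -0.013 and not called, whereas every other endothelial slope kept its call and direction.

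**Figure D4:**
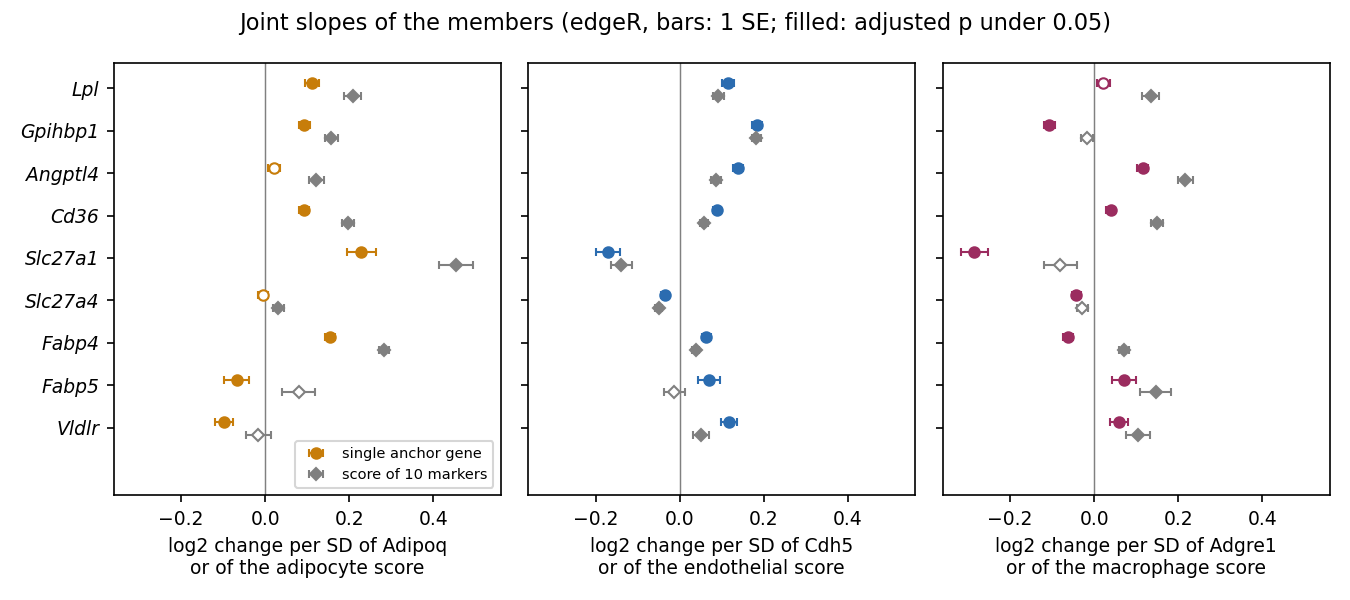
Log2 change of each gene per SD of each anchor with the other 2 anchors held (colored circles), and per SD of the score of 10 markers (gray diamonds), over all libraries with bars of 1 SE. Filled symbols had an adjusted p under 0.05 by edgeR. The endothelial slopes of Gpihbp1 lie near 0.18 in both fits, and the macrophage slope of Fabp4 lies at -0.062 in the fit on Adgre1 and at 0.071 in the fit on the score.

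With 1 anchor at a time, 71.3% of all genes were called on Adipoq, 61.7% on Cdh5 and 77.2% on Adgre1, and of the 9 members 7, 9 and 7 were. Cd36 was among those not called on Adgre1 alone (-0.0039, adjusted p = 0.76), and Lpl was the other (-0.029, adjusted p = 0.0878). Without the shallowest 10% of libraries both were called, Cd36 at -0.025 and Lpl at -0.050 (adjusted p = 0.0386 and 0.00372), and Lpl was also called with Xist and Y chromosome covariates (-0.049). Angptl4 (-0.0071) and Slc27a4 (0.0075) had no call on Adipoq. Angptl4 was called there at 0.059 with Xist and Y chromosome covariates (adjusted p = 1.65e-05), and Slc27a4 at 0.024 without the shallowest 10% of libraries (adjusted p = 0.0154). On Cdh5 alone 2 calls were lost under alternatives. Slc27a1 went from -0.17 to -0.015 with Xist and Y chromosome covariates, and Fabp5 from 0.061 to 0.055 without the shallowest 10% of libraries. At this number of mice, most genes of the tissue followed each of the 3 markers.

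Members of the set were also compared with each other, over 36 pairs. Lpl and Cd36, the enzyme and the main uptake protein, gave the largest r of 0.65 (rho = 0.60, permutation p = 1e-05). It was 0.63 without the 2 mice farthest from the median of Lpl, 0.73 with and 0.56 without Y chromosome counts, and 0.56 to 0.73 within blocks of library number. With the 3 anchors held it was 0.50. Cd36 and Fabp4 gave 0.63, and 0.56 with the anchors held, and Angptl4 and Cd36 gave 0.57 and 0.49. These 3 pairs, each with Cd36 in it, thus kept most of their size when the markers were held.

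Other pairs lost theirs. Gpihbp1 and Fabp4 had r = 0.62, the third largest, and 0.27 with the anchors held. Lpl and its carrier Gpihbp1 had 0.44 and 0.14, and Lpl and Fabp4 had 0.49 and 0.31. Lpl and its inhibitor Angptl4 rose and fell together, with 0.39 over all libraries and 0.26 with the anchors held (permutation p = 1e-05 each).

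A few pairs became larger when the anchors were held. The binding proteins Fabp4 and Fabp5 had r = 0.16 over all libraries (permutation p = 0.00076), 0.38 with the anchors held (p = 1e-05), and 0.077 with and 0.33 without Y chromosome counts. Angptl4 and Fabp4 went from 0.27 to 0.42, Slc27a4 and Fabp5 from 0.25 to 0.36, and Fabp4 and Vldlr from 0.0077 (p = 0.867) to 0.22. Fabp5 and Vldlr had 0.37 and kept 0.29. The 2 transporters, Slc27a1 and Slc27a4, had 0.20 and 0.11. With Xist and Y chromosome covariates this pair had 0.081, and 0.064 with the anchors held. With DESeq2 size factors it had 0.085 with the anchors held. None of these values had a permutation p under 0.05.

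**Figure D5:**
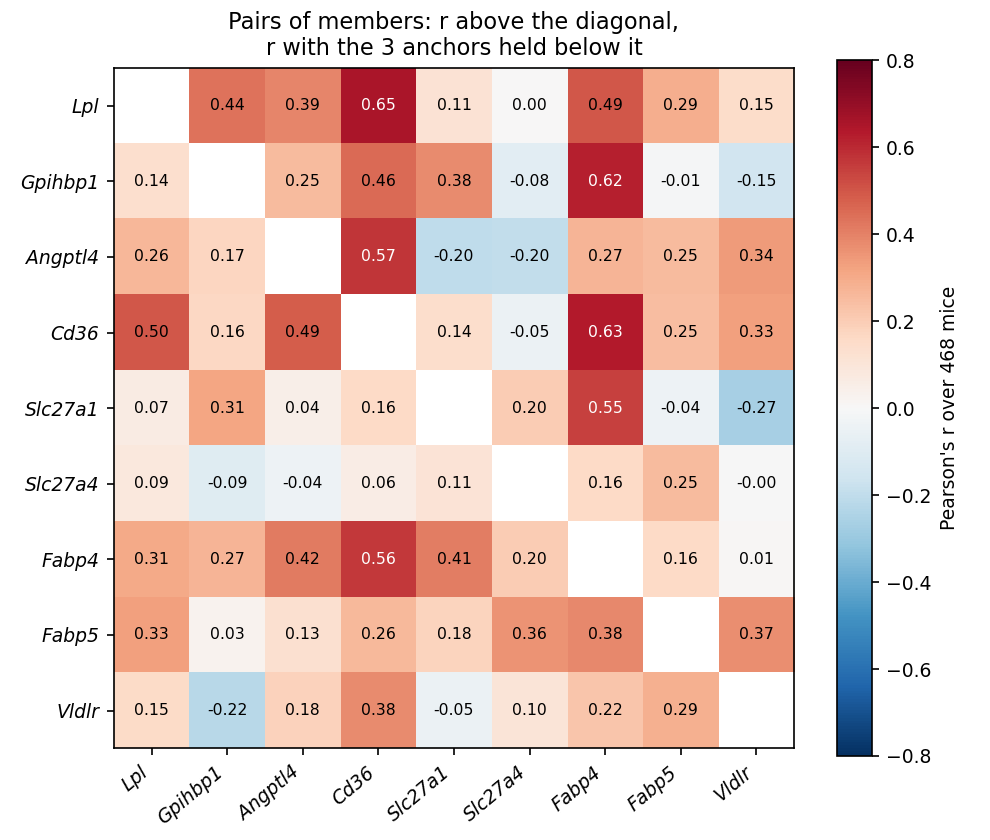
Pearson's r of log2 CPM for the 36 pairs of genes over all mice, above the diagonal as measured and below it with Adipoq, Cdh5 and Adgre1 held. Color gives r from negative (blue) to positive (red). Cd36 has r of 0.65 with Lpl, 0.63 with Fabp4 and 0.57 with Angptl4 and keeps 0.50, 0.56 and 0.49 below the diagonal.

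The negative pairs were small. Slc27a1 and Vldlr had r = -0.27, Angptl4 and Slc27a1 had -0.20, Angptl4 and Slc27a4 had -0.20 and Gpihbp1 and Vldlr had -0.15 (permutation p at most 0.00116). With Xist and Y chromosome covariates, Angptl4 and Slc27a1 changed sign to 0.046. Angptl4 and Slc27a4 then had -0.076, with a permutation p no longer under 0.05. With the anchors held, Gpihbp1 and Vldlr had -0.22 (p = 1e-05), while Slc27a1 and Vldlr had -0.047 (p = 0.305). Of the 36 pairs, 24 kept their sign in every block and 28 in both sets of libraries. The 13 with an r of 0.3 or more, all positive, did both, but were picked by their r over these same libraries.

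Ratios within a library remove what a pair of genes shares, and 4 of them were related to the 3 anchors. The ratio of Fabp5 to Fabp4 was lower where Adipoq was high (r = -0.50) and higher where Adgre1 was high (r = 0.46, permutation p = 1e-05 each). The second of these was seen in the libraries with Y chromosome counts (0.66) and not in those without (0.039, p = 0.558), and the first in both (-0.55 and -0.33). The ratio of inhibitor to enzyme, Angptl4 to Lpl, had r = -0.36 with Adipoq, 0.026 with Cdh5 and 0.38 with Adgre1. The last was 0.48 with and 0.0046 without Y chromosome counts. The value with Adipoq was -0.38 with and -0.13 without Y chromosome counts (permutation p = 1e-05 and 0.0574).

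The ratio of enzyme to carrier, Lpl to Gpihbp1, had r = -0.17 with Adipoq, -0.14 with Cdh5 and 0.33 with Adgre1. These values were not alike in both sets of libraries. With Adgre1 the ratio had 0.40 with and 0.13 without Y chromosome counts (permutation p = 1e-05 and 0.0427), and with Cdh5 it had -0.27 and -0.093 (p = 1e-05 and 0.163). With Adipoq the sign changed, from -0.25 with to 0.12 without Y chromosome counts (p = 0.00012 and 0.0822). The ratio of Slc27a4 to Slc27a1 had r = -0.47 with Adipoq and 0.49 with Adgre1, and the latter was found in both sets of libraries (0.44 and 0.31). The value with Adipoq was -0.55 with and -0.12 without Y chromosome counts (permutation p = 1e-05 and 0.0657). With Cdh5 the same ratio was -0.29 in the libraries with Y chromosome counts and 0.24 in those without, which gave 0.090 in all (p = 0.0523).

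Each member was then asked which genes followed it most closely, over 9502 genes outside the set whose mean reached 10 CPM. The values are Pearson's r of log2 CPM over all mice, given as a description. Gpihbp1 was closest to Kank3 and the endothelial receptor Adgrf5 (0.81 each) and to Cd300lg (0.79), a glycoprotein of capillary endothelium. Where Y chromosome counts were absent these values were 0.75, 0.71 and 0.70. Fabp4 was closest to Scd1, the desaturase of stored fatty acids (0.78), to Lipe, the hormone-sensitive lipase (0.78), and to the mitochondrial cristae protein Chchd6 (0.77).

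Slc27a1 was closest to Acad11, an acyl-CoA dehydrogenase (0.81), Pdk2, a kinase that holds back pyruvate dehydrogenase (0.80), and the superoxide dismutase Sod1 (0.79). The gene that moved most against it was the tubulin Tuba1a (-0.77). Lpl and Cd36 had partners in common, Syap1 (0.68 with Lpl and 0.76 with Cd36) and Aplp2 (0.60 and 0.71). The remaining leading partner was Gstz1 for Lpl (0.65) and Serinc1 for Cd36 (0.75), and the lowest values were those of Chd3 with Lpl (-0.58) and Isyna1 with Cd36 (-0.67).

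Fabp5 and Vldlr also had a partner in common, the glycolytic enzyme Tpi1 (0.68 and 0.65). Fabp5 further followed Lamtor1 (0.68), a lysosomal anchor of mTORC1 signaling, and Lss, the lanosterol synthase of cholesterol synthesis (0.67), whereas Vldlr followed Phtf2 (0.68) and Trp53inp2 (0.65), an autophagy protein. Angptl4 was closest to Slc48a1, a heme transporter (0.66), Slc12a4 (0.65) and Myl12a (0.64), and furthest from the chloride channel Ano1 (-0.64). For Angptl4 the values of Slc48a1, Slc12a4 and Myl12a were smaller within the sets of libraries, at 0.62 and 0.42 for Slc48a1 with and without Y chromosome counts. Ano1 had -0.66 with and -0.34 without them. Slc27a4 had the weakest partners, Tmem183a (0.59), Map2k2 (0.57) and Agpat2 (0.55), an acyltransferase of triglyceride synthesis.

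The number of genes that followed a member was large for all 9. By edgeR's test with 1 member as the covariate, 57.4% of genes were called for Lpl and 6 of the 8 other members, 64.4% for Gpihbp1 and 6 of 8, 70.9% for Angptl4 and 8 of 8, 60.2% for Cd36 and 6 of 8, and 79.2% for Slc27a1 and 7 of 8. For Slc27a4 it was 61.1% and 5 of 8, for Fabp4 74.3% and 7 of 8, for Fabp5 63.9% and 6 of 8, and for Vldlr 67.5% and 6 of 8. The shares of members called were close to these backgrounds. The direction was less even, since the members called were all positive for Lpl, Cd36, Fabp4 and Fabp5, where 20.2%, 22.5%, 31.4% and 31.1% of all genes were called positive.

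Further genes of the route were taken from a list of 63 genes in 6 roles, of which 61 were in the table and 58 passed the filter. On Adipoq 17 of the 58 rose (29.3%, against 21.3% of all genes), 19 fell (32.8%, against 31.9%) and 22 were not called, with a median slope of 0.018 against -0.0088 over all genes. On Cdh5 24 rose (41.4%, against 23.5%) and 17 fell (29.3%, against 36.1%), with a median of 0.016 against -0.015. On Adgre1 20 rose (34.5%, against 31.6%) and 26 fell (44.8%, against 41.8%), with a median of -0.041 against -0.019. The list as a whole thus held genes called in both directions on all 3 anchors, and on Adgre1 its shares lay near those of all genes.

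The roles hold few genes each, and their counts are a description beside the same shares of all genes. Of the 5 caveolae genes, whose proteins shape the membrane pits in which CD36 resides, all 5 rose with Cdh5 (median 0.18), where 23.5% of all genes rose, and with Adgre1 (median 0.092), where 31.6% did, and 3 rose with Adipoq, where 21.3% did. Among the 9 lipoprotein and scavenger receptors, 7 rose and 1 fell with Cdh5 (median 0.074, with 23.5% of all genes rising and 36.1% falling), and 1 rose and 5 fell with Adipoq (21.3% and 31.9% of all genes). Of the 6 tested genes that activate fatty acids to acyl-CoA, 5 fell and 0 rose with Adgre1 (median -0.14), and of the 11 regulators, 8 fell and 2 rose. On Adgre1 73.4% of all genes were called and 41.8% fell. The counts over the list and by role were made with the anchor genes only. They were not repeated with the marker scores, on which no member kept a called negative macrophage slope.

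The largest slopes of the list were held by genes with means from 0.502 CPM (Fabp7) to 566.4 CPM (Cavin2). With Cdh5, Meox2 (0.24 ± 0.012, adjusted p = 1.25e-64) and Tcf15 (0.22 ± 0.020), partners in the transcription of Cd36 and fatty acid uptake genes in capillary endothelium, rose most together with Cav2 (0.22 ± 0.020). Fabp3, the heart and muscle fatty acid binding protein (-0.88 ± 0.11), Ppara (-0.55) and Slc27a2 (-0.53) had the largest negative slopes on Cdh5. With Adgre1 the macrophage scavenger receptor Msr1 rose most (0.86 ± 0.025, adjusted p = 3.12e-127), followed by Fabp7 (0.49, mean 0.502 CPM) and the syndecan Sdc1 (0.38), and Fabp3 (-1.51), Mfsd2a (-1.27) and Slc27a2 (-1.07) fell most.

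With Adipoq the positive end held Fabp1 (0.44 ± 0.18, adjusted p = 0.0247), Apoc3, an inhibitor of the lipase (0.30 ± 0.082), and the caveolar protein Cavin2 (0.15 ± 0.014). The negative end held Acsbg1 (-1.30 ± 0.15, adjusted p = 3.74e-16), Mfsd2a (-1.11) and Slc27a2 (-0.33). Fabp1, Apoc3, Mfsd2a and Slc27a2 had means of 5.36, 3.15, 6.81 and 9.77 CPM. The slopes named for genes of the list all kept their sign in each of 10 alternative fits, and those of Fabp1 and Slc27a2 on Adipoq and of Fabp3 on Cdh5 were not called in every one, with 7, 9 and 9 calls. With Xist and Y chromosome covariates the slope of Fabp3 on Cdh5 was -0.096 (adjusted p = 0.406).

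Of the 9 members, Lpl lay nearest to a call on the order of the mice. The slope on mouse number, in log2 per 100 numbers, was called by edgeR for 23.5% of all genes and for 0 of the 9 members, and 2 members had an unadjusted p under 0.05, as did 36.2% of all genes. Lpl had -0.025 ± 0.010 (unadjusted p = 0.012, adjusted p = 0.0507) and Slc27a1 -0.045 ± 0.023 (unadjusted p = 0.0496, adjusted p = 0.137). Lpl was called in 5 of the 8 alternatives, with an adjusted p of 0.0479 with DESeq2 size factors, 0.0484 without the filter, 0.0404 with Xist and Y chromosome covariates, 0.0408 by DESeq2 and 0.0358 without the 6 libraries that stood apart. It was not called in the other 3, where the adjusted p was 0.0569 without the shallowest 10% of libraries, 0.0517 with capped counts and 0.0863 by limma, which called 0 members. On library number 0.316% of all genes were called and 0 of the 9 members by edgeR, DESeq2 or limma, with none at an unadjusted p under 0.05 by edgeR, which 8.35% of all genes had.

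Single mice set several of the extremes. DO283, with Ceacam10 counts, had the lowest Lpl, Angptl4, Cd36 and Cdh5 of all mice, with Cd36 at 0.239 times the median, but its Slc27a4 was 1.58 times the median, above all but 2 mice. DO349 had 3066 CPM of Slc27a1, 6.67 times the median, along with the highest Gpihbp1 (2.27 times the median) and the lowest Vldlr, while its Adipoq, Cdh5 and Adgre1 lay near their medians at 1.03, 1.01 and 0.946 times. DO293 had the highest level of both Lpl and Cd36, 1.91 and 1.42 times their medians. The mouse with the highest Adgre1, DO021 at 14.1 times the median, had Slc27a1 at 1.28 times its median, away from the general relation of the 2 genes, and Angptl4 at 0.604 times, below all but 5 mice.

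Slc27a1, Cd36, Slc27a4 and Vldlr were the members with a promoter in the RefSeq table for GRCm38.p6. Cd36 is the member with the largest r to several others, and the promoter listed for it is printed. The line gives the 250 bases before the transcription start listed there, chr5:17835897-17836146 on the minus strand, 5′ to 3′. That start lies inside the gene, whose upstream end in GENCODE M21 is at 17888801. Whether adipose transcripts begin at the listed start was not tested. Capitals mark the only match, on either strand, to AGGTCA, the hexamer bound by nuclear receptors such as PPARG, here read as its complement.
Cd36: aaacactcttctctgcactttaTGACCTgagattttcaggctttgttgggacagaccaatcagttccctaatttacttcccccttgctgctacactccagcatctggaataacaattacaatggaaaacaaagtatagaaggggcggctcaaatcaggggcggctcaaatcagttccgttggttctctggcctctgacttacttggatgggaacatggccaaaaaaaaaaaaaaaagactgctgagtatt
The same hexamer was found in 4607 of 32851 promoters of this length (14%), and in none of the 6 windows of Slc27a1, Slc27a4 and Vldlr. It is given as a description of the letters in these windows and was not tested as a site.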

How the data were processed

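Adipose RNA was sequenced as polyA libraries, 1 per mouse. The deposited values are expected counts per gene, made by the authors with EMASE within GBRS from reads aligned to a transcriptome of the 8 founder strains on GRCm38, with genes of low count removed. Of these values 66.8% were whole numbers (within 1e-06). A second deposited table holds log2 values from a variance stabilizing transformation by the authors with DESeq2 and was used only as an alternative, since the methods also describe a removal of batch. Totals were 35.3 to 137.8 M counts per library (SD 12.9 M), and no 2 libraries agreed within sampling noise (highest r between libraries 0.976). Each library was a separate mouse, so p-values measure the spread between mice.

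Counts were rounded, genes kept that had a minimum of 10 counts in 50% or more of libraries, and log2 CPM computed with TMM factors and a prior count of 2. edgeR 4.0.16 (quasi-likelihood) was the main test, with limma 3.58.1 and DESeq2 1.42.0 in R 4.3.3 as alternatives, all with Benjamini-Hochberg adjustment over all genes, and the edgeR script was checked on simulated data. Correlations used scipy 1.17.1. Positions and lengths are from GENCODE M21, in which 23180 of 23180 identifiers were found, and promoters from RefSeq GRCm38.p6, whose table held 4 of the 9 members. Genes named as partners were the 3 with the highest and the 1 with the lowest r for each member, and from the list of 63 genes the 3 called genes at each end for each anchor. The members and the lists were chosen with earlier results of these data known, so no test was made over a list.

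Alternatives were DESeq2 size factors, no count filter, the other tests, the shallowest 10% of libraries left out, Xist and Y chromosome genes or the mouse and library numbers as covariates, marker scores, counts capped at the 99th percentile and the deposited log2 values. Leaving out 6 libraries that stood apart, and adding the copies of Fabp5 to its counts, were chosen after seeing the data.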

Additional observations from a re-analysis of the deposited data

How the results depend on the processing

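Of the counts and shares of calls under the alternatives, 95.1% stayed within 1.5 times the reported value and 7 did not. With Xist and Y chromosome covariates 12.5% of genes were called on mouse number against 23.5%, and on library number, against 0.316%, it was 0.712% without the filter, 0.174% after the shallowest 10% of libraries were left out, 0% by limma, 0.0163% with capped counts, 0.473% by DESeq2 and 0.207% without the 6 libraries that stood apart. Of the values for single genes or pairs, 1188 kept their direction and call, 30 gained a call, 22 lost one and 44 changed sign. The cause was not tested.

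The sign changes were these. The slope of Slc27a4 on Adipoq with the other anchors held (-0.0054) became 0.00065 without the filter, 0.0055 without the lowest totals, 0.031 on marker scores and 0.0052 without the 6 libraries. On marker scores, the slope of Fabp4 on macrophages became 0.071, of Fabp5 on adipocytes 0.080 and of Fabp5 on endothelium -0.013. With each anchor alone, Angptl4 on Adipoq became 0.059 with Xist and Y covariates and 0.0025 by limma, Slc27a4 on Adipoq -0.015 with those covariates, and Cd36 on Adgre1 0.0015 by limma. On mouse number, Vldlr became -0.00044 without the filter, -0.00062 without the lowest totals, -0.0083 with Xist and Y covariates and -0.00030 without the 6 libraries, and with the covariates Gpihbp1 became 0.00053, Angptl4 -0.0039, Slc27a1 0.0034 and Slc27a4 0.0055. On library number, Fabp5 became -0.0048 with the covariates and Slc27a1 -0.00012 with capped counts. The r of Cd36 with Adgre1 became -0.0044 with DESeq2 size factors, -0.10 without the lowest totals, -0.051 with the covariates, -0.0021 in the deposited log2 values and -0.033 without the 6 libraries. The r of Angptl4 with Adipoq became -0.022 without the lowest totals, -0.068 on marker scores and -0.026 without the 6 libraries, and that of Slc27a4 with Adipoq became -0.073 with the covariates. For ratios against Cdh5, Angptl4 to Lpl became -0.076 with the covariates and -0.065 on marker scores, and Slc27a4 to Slc27a1 became -0.033 with the covariates. Among pairs, Cd36 and Slc27a4 became 0.058 without the lowest totals and 0.039 without the 6 libraries, Slc27a4 and Vldlr 0.025, 0.0090 and, with the covariates, 0.020, Fabp4 and Vldlr -0.0043 and -0.010, Gpihbp1 and Fabp5 0.010 and Angptl4 and Slc27a1 0.046 with the covariates, Lpl and Slc27a4 -0.00093 in the deposited log2 values, and Angptl4 and Slc27a4 with the anchors held 0.017 with the covariates. The negative slope of Fabp5 on Adipoq was called in the reported fit only narrowly and lost its call without the filter, by limma, with number covariates and without the lowest totals.

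Depth did not limit the members, whose lowest count in any library was 966, whereas genes of the wider list below 10 CPM rest on fewer counts. Sex, age and batch were not in the labels used for grouping, and the 2 sets of libraries by Y chromosome counts were defined from the data. No paired analysis was possible because the libraries formed 1 group.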
